A study of Mus musculus with 2 samples.

Results

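The glycolysis and hypoxia response genes are 33 named genes out of the 22441 symbols counted in both libraries, and all 33 were found by matching symbols. They fall into 16 glycolytic enzymes (Hk1, Hk2, Gpi1, Pfkl, Pfkm, Pfkp, Aldoa, Aldoc, Tpi1, Gapdh, Pgk1, Pgam1, Eno1, Pkm, Ldha and Ldhb), 3 transporters (Slc2a1, Slc16a1 and Slc16a3), 12 genes that low oxygen is known to induce (Egln1, Egln3, Pdk1, Pfkfb3, Pfkfb4, Bnip3, Bnip3l, Ankrd37, Ddit4, Ndrg1, P4ha1 and P4ha2) and the 2 HIF alpha subunits (Hif1a and Epas1). The study sequenced single cells of hearts from wild-type (WT) C57/B6 mice and from C57/B6 mice that overexpress adenylyl cyclase 8 (AC8), an enzyme that makes cyclic AMP. Per the series title the overexpression is specific to cardiomyocytes, the contractile cells of the heart. Neither group was treated, the controls were littermates, and mice of each genotype were pooled into 1 library, the number of animals, their age and their sex being not given in the sources used here. Leukocytes (CD45+CD31-), resident mesenchymal cells (CD45-CD31-) and endothelial cells (CD45-CD31+) were sorted and mixed in equal number, so shares of these 3 fractions were set by the sort, and the cells that carry the overexpression were not a target of any gate.

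Glycolysis breaks glucose down to pyruvate in the cytosol, and lactate dehydrogenase turns pyruvate into lactate when it is not burned in mitochondria. The transcription factors HIF-1 and HIF-2, built on the alpha subunits HIF1A and EPAS1, induce many glycolytic enzymes and transporters. With oxygen present, prolyl hydroxylases of the EGLN family mark the alpha subunits for destruction, and 2 of these hydroxylase genes are themselves HIF targets. In the heart, cardiomyocytes burn mainly fatty acids, whereas endothelial cells and activated macrophages are known to lean on glycolysis.

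The WT library held 5800 cells and 9664932 unique molecular identifiers (UMIs, each 1 counted transcript molecule), and the AC8 library 4867 cells and 11076564 UMIs. After filtering, 3546 and 3578 cells remained, with median depths of 1884.5 and 2323 UMIs. Clustering without the 33 genes or their wider pathways gave 18 clusters, which fixed markers named as 10 classes. The 4 largest classes, each with over 100 cells per library, were fibroblast-like (1902 WT and 1531 AC8 cells), macrophage-like (579 and 722), endothelial-like (621 and 570) and B cell-like (113 and 295). Dendritic cell-like, monocyte-like, T cell-like, NK cell-like and mural-like classes held 35 to 152 cells per library and are used for levels, while the Schwann-like class, with 31 and 22 cells, is not. The NK cell-like cluster also had the T cell genes Cd3g and Ctla4 among its leading genes. No cluster was cardiomyocyte-like, and Adcy8, the mouse gene for adenylyl cyclase 8, had 0 UMIs in the WT library and 1 in the AC8 library, so the overexpression itself could not be checked in these cells. With 1 library per genotype there is no test between genotypes. Levels are counts per 1000000 UMIs of a class in a library (CPM), brackets give exact 95% intervals that cover counting error only, and differences between mice within a pool are not covered.

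HIF binds the core motif ACGTG, or its relative GCGTG, in hypoxia response elements. In RefSeq promoters of GRCm38.p6 (250 bases before to 50 after the start of a transcript), 30 of the 33 genes matched, with 43 promoters, and Bnip3l, Ndrg1 and Epas1 were not matched. ACGTG on either strand was present in 58.1% of these 43 promoters and in 19.6% of all 32851 promoters. By gene, 10 of 16 enzymes, 3 of 3 transporters and 8 of 10 hypoxia genes had it in at least 1 promoter, against 21.8% of all genes. The 16 enzymes had 27 promoters and all 27025 genes 32851, and more promoters per gene give more places for a match. The members were picked for known roles in glycolysis or low oxygen, so a high share of this motif is not an independent result. By promoter, 12 of 27 of the enzymes (44.4%) and 9 of 12 of the hypoxia genes (75%) had it. GCGTG on either strand was in 60.5% of the members' promoters and 32.4% of all promoters. The sequence CACGTG reads the same on both strands, is also the E-box of other factors, and is counted as 2 starts of ACGTG. The windows show 4 enzymes that were at least 1.5-fold higher in AC8 macrophage-like cells, and the hypoxia genes Bnip3 and Ddit4. In those cells Ddit4 was at least 1.5-fold lower in AC8, and Bnip3 had a ratio of 1.45 (0.988 to 2.17), whose interval includes 1. The windows were chosen after these values were seen. Each is 100 bases long and wholly upstream of the transcript start, printed 5′ to 3′ on the gene's strand, and capitals mark ACGTG and GCGTG on either strand. They lie at chrX:106186912-106187011 (+) for Pgk1, chr19:41911709-41911808 (+) for Pgam1, chr7:46845611-46845710 (+) for Ldha, chr7:126799329-126799428 (-) for Aldoa, chr7:138909562-138909661 (-) for Bnip3 and chr10:59951906-59952005 (-) for Ddit4.
Pgk1: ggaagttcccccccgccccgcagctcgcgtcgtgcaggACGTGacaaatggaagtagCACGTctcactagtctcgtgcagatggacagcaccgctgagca
Pgam1: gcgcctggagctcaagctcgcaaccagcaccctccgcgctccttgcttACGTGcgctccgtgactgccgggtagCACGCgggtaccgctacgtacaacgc
Ldha: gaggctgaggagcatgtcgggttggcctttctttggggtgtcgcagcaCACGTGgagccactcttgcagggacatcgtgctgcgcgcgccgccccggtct
Aldoa: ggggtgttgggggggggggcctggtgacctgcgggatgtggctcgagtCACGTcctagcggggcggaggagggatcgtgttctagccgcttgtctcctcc
Bnip3: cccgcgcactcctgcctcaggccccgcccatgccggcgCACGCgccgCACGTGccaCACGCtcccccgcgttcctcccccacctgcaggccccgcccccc
Ddit4: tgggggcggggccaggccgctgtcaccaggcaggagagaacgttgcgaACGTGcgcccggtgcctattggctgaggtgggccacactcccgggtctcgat

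The Bnip3 window holds a CACGTG with GCGTG copies on both sides within a few bases, and the Pgk1 window holds ACGTG once on each strand. These letters are also present in Ddit4, which was lower in AC8 macrophage-like cells. Whether a match goes with the ratio between genotypes was not tested. Tpi1 and Gpi1, which were at least 1.5-fold higher in AC8 macrophage-like cells, have neither motif in this table's windows.

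Enzyme UMIs were found in every class, but the makeup by isoform differed between classes. Hk2, the inducible hexokinase, was highest in fibroblast-like cells at 179 CPM in WT (167 to 192) and 208 in AC8 (194 to 222), and lowest in endothelial-like cells at 3.25 (0.670 to 9.49) and 2.22 (0.269 to 8.02). Endothelial-like cells carried Hk1, the housekeeping hexokinase, at 58.5 and 77.7 CPM. The Hk2-to-Hk1 UMI ratio was 4.19 (3.57 to 4.93) in WT and 5.73 (4.84 to 6.82) in AC8 among fibroblast-like cells. Macrophage-like cells had 3.45 (2.33 to 5.26) and 4.05 (3.15 to 5.26), against 0.0556 (0.0111 to 0.171) and 0.0286 (0.00339 to 0.107) in endothelial-like cells. In each library the endothelial-like interval lies below those of the other two classes. UMI ratios of 2 genes are compared only between classes, since capture can differ between genes.

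Lactate dehydrogenase showed a second split. Ldhb, the heart-type subunit, was highest in mural-like cells (vascular smooth muscle and pericytes) at 189 CPM in WT (121 to 281) and 193 in AC8 (130 to 275). Ldhb per Ldha was 0.571 and 0.441 there, 0.144 and 0.142 in fibroblast-like cells, and 0.0269 and 0.0275 in macrophage-like cells, so the order was the same in both libraries. In B cell-like cells Ldhb had 0 UMIs in both libraries, with exact intervals that reach 23.6 CPM in WT and 9.67 in AC8. Ldha, the muscle-type subunit that favours lactate, was highest in NK cell-like cells at 673 and 867 CPM and lowest in B cell-like cells at 211 and 288.

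Phosphofructokinase, the committed step of glycolysis, is made from Pfkl, Pfkm or Pfkp. Pfkp per Pfkl was 6.89 (5.06 to 9.57) and 4.81 (3.61 to 6.50) in fibroblast-like cells, against 1.07 (0.688 to 1.67) and 0.900 (0.630 to 1.28) in endothelial-like cells. Pfkl was highest in T cell-like cells in WT (53.5 CPM, from 4 UMIs) and in endothelial-like cells in AC8 (77.7), and lowest in NK cell-like cells (8.74 and 7.67, from 1 UMI each). Pfkm, the muscle form, reached 30 summed UMIs only in fibroblast-like cells, at 10.9 and 10.48 CPM. Aldoc, the brain-type aldolase, reached them in no class, and 9 of its 11 WT UMIs and 15 of its 26 AC8 UMIs over these 9 classes were in dendritic cell-like cells.

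The remaining enzymes were at their highest in myeloid, lymphoid or mural classes. Pkm, pyruvate kinase, was highest in monocyte-like cells at 678 CPM in WT (508 to 887) and 795 in AC8 (663 to 946), and its interval there overlapped that of NK cell-like cells (472 and 690). Monocyte-like cells were also highest for Eno1, enolase (410 and 395 CPM), for WT Gapdh (1511) and for AC8 Gpi1 (457). Dendritic cell-like cells were highest for Pgam1, phosphoglycerate mutase (205 and 372), for WT Gpi1, glucose phosphate isomerase (334), and, in AC8, for Gapdh (2078), Pgk1 (249) and Pfkp (105). Mural-like cells were highest for Aldoa, the main aldolase (803 and 926), for Tpi1, triose phosphate isomerase (244 and 277), and, in WT, for Pfkp (165) and Hk1 (86.6). They were also highest for Pfkm (31.5 and 19.3, from 4 and 3 UMIs), with intervals that include the fibroblast-like levels. WT Pgk1, phosphoglycerate kinase, was highest in NK cell-like cells (184) and lowest in macrophage-like cells (51.6), while in AC8 it was lowest in mural-like cells (83.6). Fibroblast-like cells were lowest for Eno1 (74.8 and 83.4) and Gpi1 (155 and 216), and T cell-like cells for Aldoa (134 and 382), Tpi1 (26.7 and 65.1) and Pgam1 (40.1 and 65.1).

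**Figure D1:**
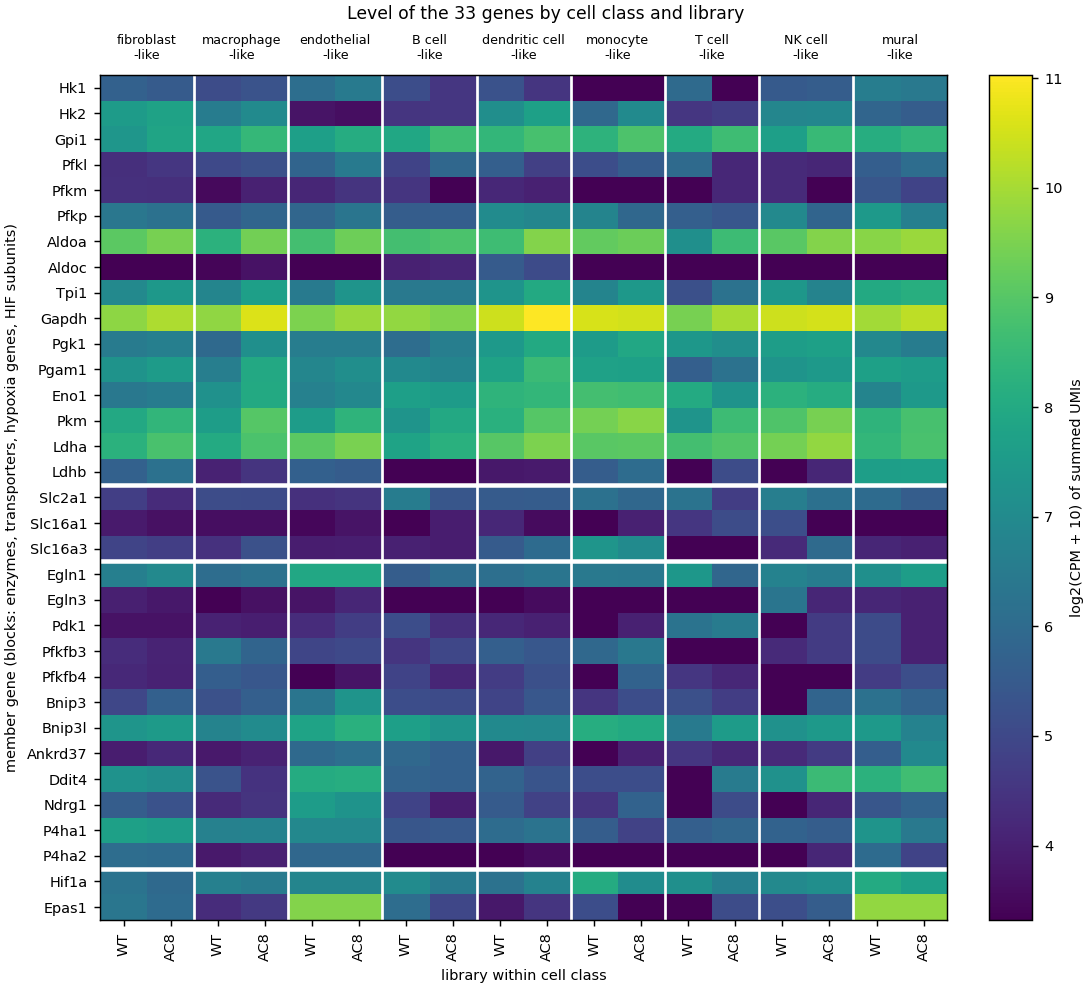
Level of each of the 33 genes (rows, in 4 blocks) by cell class and library (columns), as log2(CPM + 10) of UMIs summed over the cells of the class. Gapdh and Aldoa are bright throughout, Hk2 is dark in the endothelial-like columns, and Epas1 is bright in the endothelial-like and mural-like columns of both libraries.

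The transporters were low. Slc16a3, the lactate exporter MCT4, was highest in monocyte-like cells at 154 CPM in WT (79.4 to 268) and 119 in AC8 (71.6 to 186), and had 0 UMIs in T cell-like cells. Slc2a1, the glucose transporter GLUT1, was highest in NK cell-like cells (87.4 and 61.4) and lowest in endothelial-like cells in WT (10.8) and fibroblast-like cells in AC8 (9.34). Slc16a1, the monocarboxylate transporter MCT1, reached 30 summed UMIs only in fibroblast-like cells and was at most 26.2 CPM in any class, in NK cell-like cells of WT from 3 UMIs.

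Among the hypoxia genes and HIF subunits, several were highest in endothelial-like or mural-like cells. Epas1, the HIF-2 alpha subunit, was at 771 CPM in WT (715 to 830) and 770 in AC8 (713 to 829) in endothelial-like cells, and at 874 (719 to 1052) and 868 (728 to 1030) in mural-like cells. It was at 71.6 and 54.2 CPM in fibroblast-like and 9.72 and 14.4 in macrophage-like cells. Hif1a was flatter across classes, from 64.3 (dendritic cell-like) to 256 (monocyte-like) in WT and from 52.0 (fibroblast-like) to 193 (mural-like) in AC8. Epas1 per Hif1a was therefore 7.42 (5.99 to 9.28) and 7.37 (5.94 to 9.25) in endothelial-like cells, 3.47 and 4.50 in mural-like, 1.09 and 1.04 in fibroblast-like, and 0.104 (0.0539 to 0.184) and 0.176 (0.121 to 0.249) in macrophage-like cells. The order of these 4 classes was the same in both libraries.

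Egln1, the oxygen-sensing hydroxylase PHD2, was highest in endothelial-like cells at 235 CPM in both libraries. Its intervals there (205 to 268 in WT and 205 to 269 in AC8) lie above those of fibroblast-like cells (82.5 to 101 and 105 to 125). Ndrg1, a stress-responsive gene, was also highest there at 181 and 147 CPM, with fibroblast-like cells at 37.9 and 28.0. Bnip3, which drives removal of mitochondria, was highest there at 70.4 and 149 CPM, and its relative Bnip3l was at 212 and 284, below monocyte-like cells (269) in WT. Ankrd37, a small ankyrin-repeat gene, was highest in endothelial-like cells in WT (52.0), next to B cell-like cells (51.3, from 8 UMIs). In AC8 it was highest in mural-like cells (116, from 18 UMIs, 44.4% of them in 1 cell). Ddit4, an inhibitor of the growth kinase mTORC1, was highest in mural-like cells (299 and 392), next to endothelial-like cells in WT (258) and NK cell-like cells in AC8 (368).

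Fibroblast-like cells led for the collagen prolyl hydroxylases. P4ha1 was at 199 CPM in WT (186 to 212) and 183 in AC8 (171 to 196), and P4ha2 at 57.2 and 54.9, a level whose interval overlaps that of endothelial-like cells (49.8 and 49.97). Macrophage-like cells led in WT for Pfkfb3 and Pfkfb4, enzymes that make the activator of phosphofructokinase, at 76.2 and 39.6 CPM. In AC8, monocyte-like cells were highest for both (75.1 and 43.8), from 12 and 7 UMIs. Their intervals (38.8 to 131 and 17.6 to 90.3) include the AC8 macrophage-like levels (46.5 and 32.9). Pdk1, a kinase that inhibits the mitochondrial enzyme pyruvate dehydrogenase, was highest in T cell-like cells (66.9 and 81.4 CPM, from 5 and 10 UMIs). It reached 30 summed UMIs in no class. Egln3 was highest in NK cell-like cells in WT (69.9 CPM, from 8 UMIs), where AC8 had 1 UMI, and had 0 UMIs in WT macrophage-like cells.

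Between genotypes, with cells of all depths pooled, the enzyme sum of macrophage-like cells had the highest ratio of the 9 classes, while the hypoxia gene sum was near 1. AC8 macrophage-like cells were also deeper, and the enzyme ratio was lower in each matched depth bin up to 6000 UMIs, with values given after the genes. All 14 enzymes with at least 30 summed UMIs had higher CPM in AC8, where 48.1% of all measured genes did. Of these enzymes, 10 were at least 1.5-fold higher. Their median log2 ratio (with 10 CPM added to each level) was 0.80, against -0.02 for all measured genes. The 16 enzymes together made up 2378 CPM in WT and 4575 in AC8, a ratio of 1.92 (1.85 to 2.001). The 12 hypoxia genes summed to 448 and 450 CPM, a ratio of 1.01 (0.910 to 1.11). Of 26 measured members of the full set, 11 were at least 1.5-fold higher, where 12.1% of all 8471 measured genes were, and 2 were at least 1.5-fold lower, where 14.1% of all were.

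The 3 largest ratios among measured enzymes belonged to genes of the later steps, between glyceraldehyde phosphate and pyruvate. Pkm was at 185 CPM in WT and 505 in AC8, a ratio of 2.72 (2.38 to 3.13), with UMIs in 175 and 431 cells. Pgam1 was at 88.9 and 241 CPM, a ratio of 2.71 (2.23 to 3.33). Pgk1 was at 51.6 and 132 CPM, a ratio of 2.56 (1.97 to 3.36). Aldoa, which splits the 6-carbon sugar, followed with 302 and 658 CPM and a ratio of 2.18 (1.95 to 2.43), and Tpi1 with 104 and 194 CPM and a ratio of 1.87. Gapdh, glyceraldehyde phosphate dehydrogenase, was the most abundant at 855 and 1557 CPM, a ratio of 1.82 (1.71 to 1.95). Ldha was at 250 and 453 CPM (1.81), Eno1 at 140 and 245 (1.75) and Gpi1 at 225 and 344 (1.53). Eno1 has a near-identical copy counted as Eno1b, which was at 47.1 and 91.5 CPM. How reads were divided between them was not tested, so the level of Eno1 is uncertain, and its log2 ratio was 0.77 alone and 0.81 with Eno1b added. Ldhb, at 6.73 and 12.5 CPM from 9 and 33 UMIs, had a ratio of 1.85 whose interval (0.868 to 4.41) includes 1.

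Hexokinase and phosphofructokinase genes were under 1.5-fold. Hk2 was at 85.2 and 119 CPM, a ratio of 1.40 (1.13 to 1.75). Pfkp (1.35), Pfkl (1.25) and Hk1 (1.196) had intervals that include 1, while Pfkm (2 and 17 UMIs) and Aldoc (1 and 8 UMIs) were too sparse for a ratio to be read. Aldoa, Tpi1, Gapdh, Pfkm and Pfkp each overlap a gene on the opposite strand in GENCODE vM21, as does the hypoxia gene Ankrd37. The sources used here do not say whether counting used strand. Of the transporters, the exporter Slc16a3 was at 11.2 CPM in WT and 27.6 in AC8, a ratio of 2.46 (1.40 to 4.62), and Slc2a1 was at 24.7 and 23.8.

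Hypoxia genes in the same cells went both ways. Ddit4 was at 29.1 CPM in WT and 11.7 in AC8, a ratio of 0.402 (0.243 to 0.661), with values by cluster given below. Pfkfb3 was at 76.2 and 46.5 CPM, a ratio of 0.610 (0.465 to 0.801). Bnip3 was at 27.7 and 40.1, a ratio of 1.45 (0.988 to 2.17), and Bnip3l at 99.4 and 123, a ratio of 1.24 (1.01 to 1.52). P4ha1 (1.02), Egln1 (1.15), Pfkfb4 (0.830) and Ndrg1 (1.39) had intervals that include 1, as did Hif1a (0.874) and Epas1 (1.48). Egln3, Pdk1, P4ha2, Ankrd37 and Slc16a1 stayed under 30 summed UMIs, with 0 to 18 UMIs per library.

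**Figure D2:**
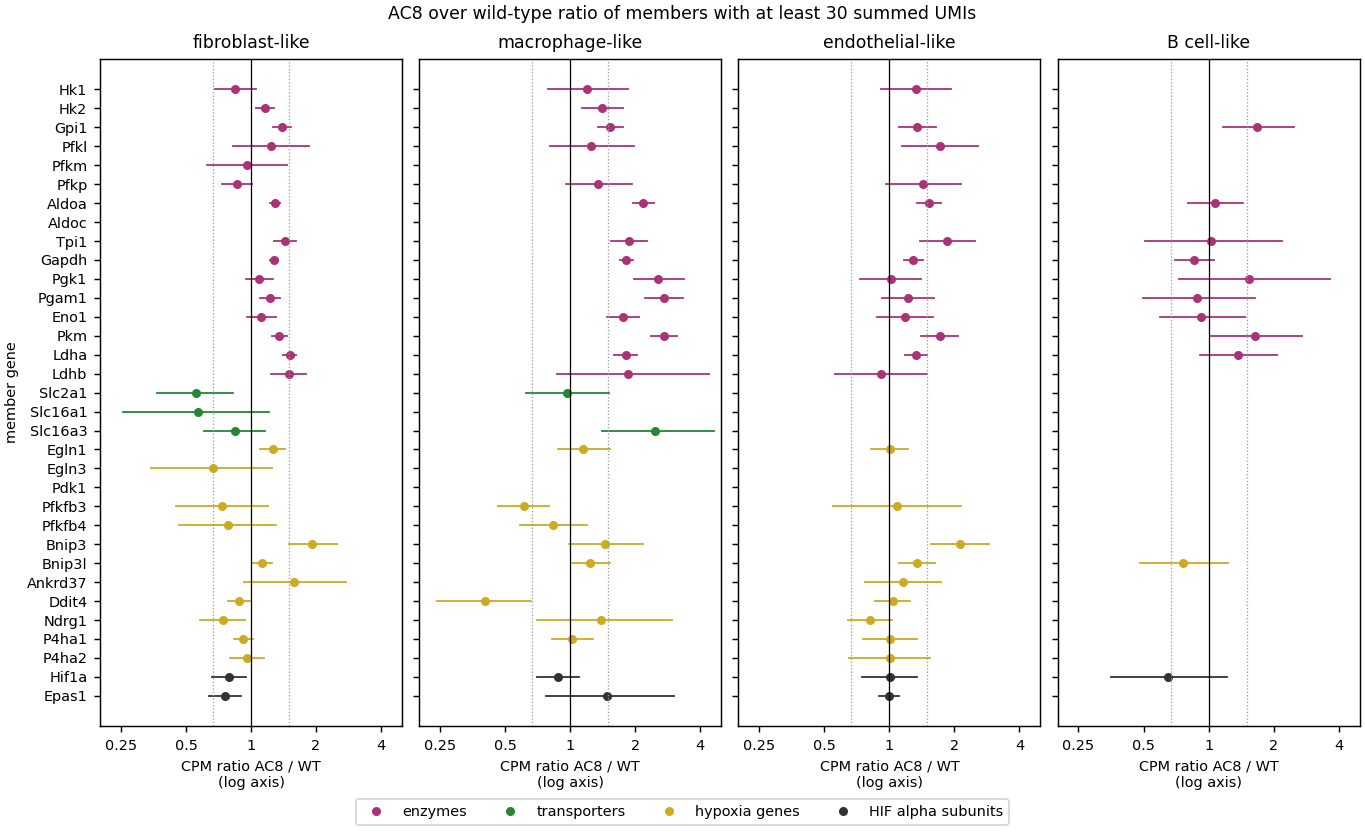
CPM ratio of AC8 over WT for the members with at least 30 summed UMIs in the 4 main classes, on a log axis, with exact 95% counting intervals as bars and dotted lines at 1.5-fold in each direction. In the macrophage-like panel all 14 enzymes lie to the right of 1, while the hypoxia genes lie on both sides.

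The macrophage-like class held 3 clusters, and they differed in enzyme level as well as in genotype. The cluster led by F13a1, Cbr2 and Ccl12, genes of resident macrophages, held 268 WT and 377 AC8 cells and had enzyme sums of 2314 CPM in WT and 3396 in AC8, a ratio of 1.47 (1.39 to 1.56). The cluster led by C1qc, C1qa and Cxcl2 held 308 and 276 cells with sums of 2306 and 3902 CPM, a ratio of 1.69 (1.59 to 1.80). A small cluster led by Spp1, Lgals3 and Gpnmb, genes of lipid-associated macrophages, held 3 WT and 69 AC8 cells. Its enzyme sums were 7212 and 9425 CPM, the highest of the 3 clusters in each library. Its cells were also the deepest, with medians of 5869 and 6251 UMIs. Without it the enzyme sums of the class were 2310 CPM in WT and 3598 in AC8, a ratio of 1.56 (1.49 to 1.62). All 14 measured enzymes were still higher in AC8, but 7 rather than 10 by at least 1.5-fold, where 10.0% of all genes were and 10.6% were as much lower.

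Without the Spp1-led cluster, Pkm was at 180 and 356 CPM (ratio 1.98), Pgk1 at 48.5 and 96.7 (1.99) and Pgam1 at 80.3 and 141 (1.76). Gapdh, at 831 and 1212 CPM, then had a ratio of 1.46, and Eno1 and Tpi1 had 1.44 and 1.47, each under 1.5. Ddit4 was at 27.3 and 14.1 CPM and Pfkfb3 at 77.3 and 46.3, both still lower in AC8. In that setting Bnip3 (28.0 and 42.7 CPM, ratio 1.52), Ndrg1 (1.62) and Epas1 (1.57) also passed 1.5-fold, so 11 of 26 members did, as with the cluster included. By cluster, Ddit4 was at 36.2 and 13.6 CPM in the C1qc-led cluster, a ratio of 0.376 (0.171 to 0.788). In the F13a1-led cluster it was at 19.0 and 14.4 CPM, a ratio of 0.757 whose interval (0.355 to 1.67) includes 1.

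**Figure D3:**
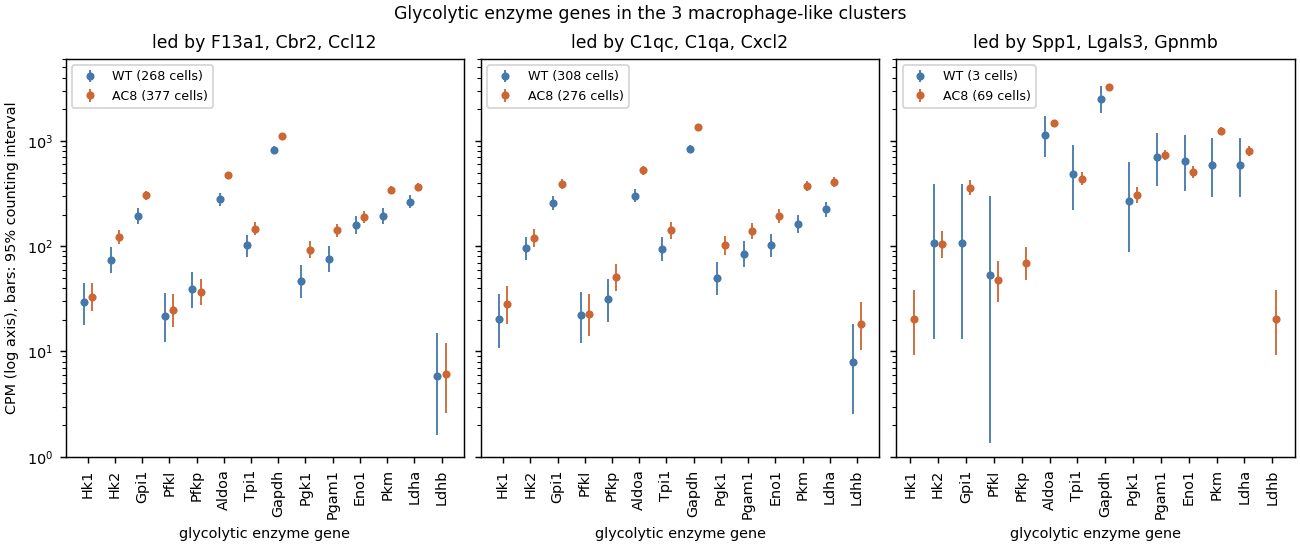
CPM (log axis) of the 14 enzyme genes measured in macrophage-like cells, by cluster, with WT in blue, AC8 in orange and 95% counting intervals as bars; genes with 0 UMIs have no point. In the first pair of clusters the AC8 points lie above WT for Pkm, Pgam1, Pgk1 and Aldoa, and in the Spp1-led cluster the WT values rest on 3 cells.

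Depth moved with these levels. AC8 macrophage-like cells had a median of 3215.5 UMIs and WT cells 1998, and within each library the enzyme sum was higher in deeper cells. In cells of 1000 to 1500 UMIs the sums were 2008 CPM in WT and 2860 in AC8 (ratio 1.42). In cells of 1500 to 3000 UMIs they were 2191 and 3001 (1.37), and in cells of 3000 to 6000 UMIs 2690 and 4168 (1.55). So the ratio was above 1 in each of these bins but below the 1.92 of all cells. Cells over 6000 UMIs enter the 1.92 but none of these bins, and the AC8 cells of the Spp1-led cluster had a median of 6251. In cells of 1500 to 3000 UMIs, 4 of 21 measured members were at least 1.5-fold higher, where 9.75% of all genes were, against 11 of 26 over all depths. At that depth Pkm had a log2 ratio of 0.76 and Pgk1 0.67, while Pgam1 had 0.10, Pfkp -0.21, Slc16a3 -0.03 and Ldhb -0.29. In the same bin the enzyme ratio of endothelial-like cells was 1.39 (1.29 to 1.51) and that of macrophage-like cells 1.37 (1.28 to 1.47). In cells of 1000 to 1500 UMIs these ratios were 1.32 (1.22 to 1.42) and 1.42 (1.18 to 1.71). The intervals of these classes overlap in both bins, and endothelial-like cells had no bin of 3000 to 6000 UMIs. The difference between these classes was not tested. Markers of other cells also moved in macrophage-like cells. The 7 erythroid genes summed to 188 CPM in WT, with 3 of them at 0, and 5.29 in AC8, with 2 at 0. The 7 fibroblast genes, none at 0, summed to 132 and 68.4, and the 4 platelet genes to 4.48, with 3 at 0, and 19.7, with 1 at 0. Of 31 measured genes that dissociation of tissue is known to induce, 23 were lower in AC8 in this class, where 48.1% of all genes were higher. The part of depth, of these markers and of the stress genes in the enzyme difference was not tested.

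**Figure D4:**
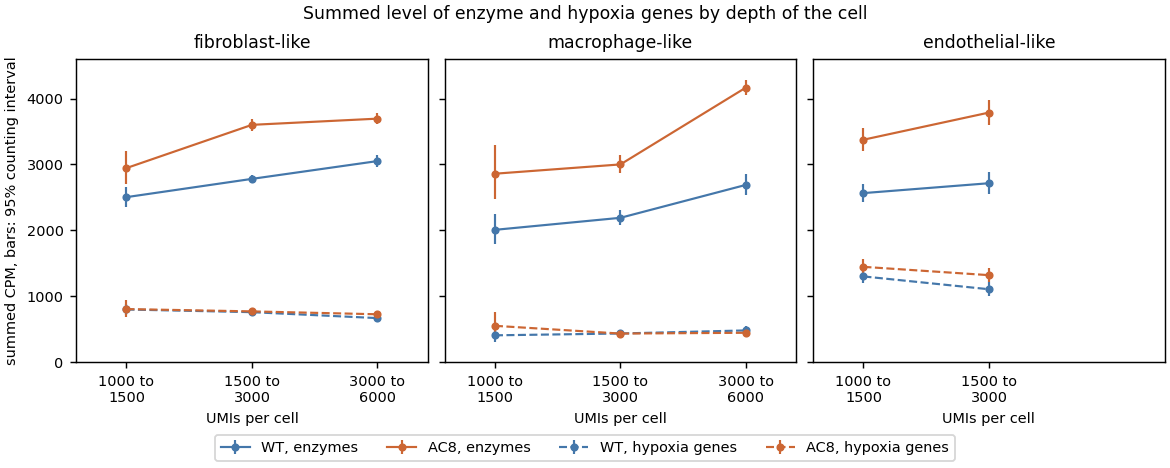
Summed CPM of the 16 enzymes (solid lines) and of the 12 hypoxia genes (dashed lines) by UMIs per cell, WT in blue and AC8 in orange, with 95% counting intervals; only bins with at least 20 cells in each library are drawn. AC8 enzyme sums lie above WT in each bin drawn. On this axis the hypoxia gene lines lie close together in fibroblast-like and macrophage-like cells. In macrophage-like cells of 1000 to 1500 UMIs the hypoxia sums were 407 and 551 CPM, a ratio of 1.35 (0.876 to 2.07). In the deeper bins of that class the ratios were 0.997 and 0.926.

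In fibroblast-like cells the enzymes were also higher in AC8, but by less. The sum was 2834 CPM in WT and 3650 in AC8, a ratio of 1.29 (1.26 to 1.32). Of 15 measured enzymes 12 were higher, where 42.1% of all genes were. AC8 cells of this class were deeper, with a median of 2735 UMIs against 2162.5, and the ratio was 1.18, 1.29 and 1.21 in the bins of 1000 to 1500, 1500 to 3000 and 3000 to 6000 UMIs. The enzymes' median log2 ratio was 0.27, against -0.05 for all measured genes. Only Ldha passed 1.5-fold, at 293 and 443 CPM with a ratio of 1.51 (1.41 to 1.62), with Ldhb at 42.2 and 62.9 (1.49) and Tpi1 at 114 and 163 (1.43) just under it. Gpi1 (1.39), Pkm (1.35), Aldoa (1.30), Gapdh (1.28), Pgam1 (1.22) and Hk2 (1.16) were higher with intervals above 1. Pgk1 (1.09), Eno1 (1.12) and Pfkl (1.23), all higher, had intervals that include 1, as did the lower Hk1 (0.845), Pfkp (0.860) and Pfkm (0.958).

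The transporters and most hypoxia genes of fibroblast-like cells were lower in AC8 or near 1. Slc2a1 was at 16.9 CPM in WT and 9.34 in AC8, a ratio of 0.554 (0.368 to 0.822). Slc16a1 (21 and 12 UMIs, ratio 0.571) and Egln3 (27 and 18 UMIs, ratio 0.666) also passed 1.5-fold lower, with intervals that include 1. Bnip3 stood out the other way, at 21.4 CPM in WT and 41.3 in AC8, a ratio of 1.92 (1.49 to 2.496), and Ankrd37 was at 5.47 and 8.66 CPM, a ratio of 1.58 (0.925 to 2.76). Egln1 (91.2 and 115 CPM, ratio 1.26) and Bnip3l (153 and 173, ratio 1.12) were higher with intervals above 1. Ndrg1 (0.740), Ddit4 (0.879), Hif1a (65.7 and 52.0 CPM, ratio 0.791) and Epas1 (71.6 and 54.2 CPM, ratio 0.757) were lower with intervals below 1. P4ha1 (0.922), P4ha2 (0.959), Pfkfb3 (0.738), Pfkfb4 (0.783) and Slc16a3 (0.840) had intervals that include 1, and Pdk1 had 13 UMIs in each library.

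By number, 3 of 31 measured members were at least 1.5-fold higher in fibroblast-like cells, where 4.31% of all genes were, and 3 were at least 1.5-fold lower, where 11.8% were. The hypoxia genes summed to 736 and 750 CPM, a ratio of 1.02 (0.971 to 1.07). Bnip3 was higher in AC8 in the 3 largest fibroblast-like clusters, with 17.1 and 35.3 CPM, 21.4 and 46.6, and 33.7 and 49.5, taking in order cluster 1 (led by Dcn, Clec3b and Gsn), cluster 2 (Clec3b, Gsn and Mfap5) and cluster 6 (Gsn, Fbln1 and Dcn). The cluster 6 ratio of 1.47, from 20 and 30 UMIs, had an interval (0.807 to 2.73) that includes 1. In cluster 11, with 101 and 73 cells, Bnip3 was at 5.62 and 50.6 CPM. There 312 and 252 enzyme UMIs equalled 1753 and 2125 CPM, so these Bnip3 levels rest on few UMIs. In cluster 7, which has the same leading genes as cluster 1, Bnip3 was at 24.1 and 23.95 CPM. The hypoxia genes there summed to 951 and 764 (ratio 0.803), so the class value does not hold in each cluster. Of 31 measured dissociation genes 26 were lower in AC8 fibroblast-like cells, where 42.1% of all genes were higher. The 7 erythroid genes summed to 19.6 and 5.47 CPM, with 3 and 2 at 0, and the 7 endothelial genes, none at 0, to 77.3 and 49.2. The part of these dissociation, erythroid and endothelial genes and of depth in the differences was not tested.

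In endothelial-like cells, 12 of 13 measured enzymes were higher in AC8, where 47.8% of all genes were. Depth was alike in both libraries (medians of 1312 and 1377 UMIs). The enzyme sum was 2616 CPM in WT and 3595 in AC8, a ratio of 1.37 (1.30 to 1.45). Tpi1 was at 81.2 and 150 CPM, a ratio of 1.85 (1.38 to 2.48). Pkm was at 182 and 311 CPM, a ratio of 1.71 (1.41 to 2.08), Pfkl at 45.5 and 77.7 (1.71) and Aldoa at 417 and 636 (1.53). Pfkp (1.44), Gpi1 (1.34), Hk1 (1.33), Ldha (1.32), Gapdh (1.29), Pgam1 (1.22), Eno1 (1.18) and Pgk1 (1.01) were under 1.5-fold, and Ldhb was at 41.1 and 37.8 CPM. The 7 erythroid genes summed to 2504 CPM in WT, none at 0, and 702 in AC8, with 2 at 0, and 5 genes of cycling cells to 67.1 and 14.4. The 8 cardiomyocyte genes summed to 351 and 353, and 19 of 30 dissociation genes were higher in AC8, where 47.8% of all genes were. The part of the erythroid, cycling and dissociation genes in the enzyme difference was not tested.

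Bnip3 was the hypoxia gene that differed most in endothelial-like cells, at 70.4 CPM in WT (54.3 to 89.7) and 149 in AC8 (125 to 176), a ratio of 2.11 (1.56 to 2.89). It was higher in both large endothelial-like clusters, at 81.8 and 154 CPM in the one led by Depp1 and at 56.7 and 136 in the one led by Fabp4. Bnip3l was at 212 and 284 CPM, a ratio of 1.34 (1.11 to 1.62), with 1.54 (1.21 to 1.96) in the first of these clusters and 0.918 (0.648 to 1.29) in the second. Over the class, Epas1 had a ratio of 0.998 (0.898 to 1.11), but it differed in opposite directions in the 2 large clusters. It was at 854 and 734 CPM in the cluster led by Depp1, a ratio of 0.859 (0.755 to 0.978), and at 554 and 749 in the one led by Fabp4, a ratio of 1.35 (1.09 to 1.68). Hif1a had a class ratio of 1.004 (0.747 to 1.35) and Egln1 of 1.002 (0.825 to 1.22), and the collagen hydroxylase genes P4ha1 and P4ha2 had 1.01 and 1.003. Ddit4 (1.03), Pfkfb3 (1.08), Ankrd37 (1.15) and Ndrg1 (0.811) had intervals that include 1. Hk2, Pfkm, Aldoc, Egln3, Pdk1, Pfkfb4 and the 3 transporters stayed under 30 summed UMIs, with 0 to 15 UMIs per library. Of 24 measured members, 5 were at least 1.5-fold higher, where 8.0% of all genes were, and 0 were at least 1.5-fold lower, where 10.1% were. The hypoxia gene sum was 1202 and 1353 CPM, a ratio of 1.13 (1.04 to 1.22).

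B cell-like cells, with 113 and 295 cells, measured 11 members. Gpi1 was at 231 CPM in WT and 388 in AC8, a ratio of 1.68 (1.16 to 2.49), Pkm at 147 and 241 (1.64, interval 1.03 to 2.71) and Pgk1 at 57.7 and 89.1 (1.55, from 9 and 34 UMIs). Hif1a was at 122 and 78.6 CPM, a ratio of 0.646 (0.352 to 1.21). Gapdh was at 865 and 742 CPM, a ratio of 0.858 (0.696 to 1.06), and Ldha, Aldoa, Tpi1, Eno1, Pgam1 and Bnip3l had ratios of 0.764 to 1.36 with intervals that include 1. So 3 of 11 were at least 1.5-fold higher, where 11.4% of all genes were, and 1 was at least 1.5-fold lower, where 14.3% were. The enzyme sum was 2428 and 2676 CPM, a ratio of 1.10 (0.978 to 1.24). The other 22 members had 0 to 22 UMIs per library, and endothelial genes were at 660 CPM in WT and 160 in AC8 in these cells, beside Epas1 at 9 and 8 UMIs.

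The smaller classes had enzyme ratios above 1 as well. Dendritic cell-like cells were at 4100 CPM in WT and 6067 in AC8, a ratio of 1.48 (1.38 to 1.59), and their median depth was 3010 and 4019 UMIs. In this class 23 of 30 dissociation genes were lower in AC8, where 50.9% of all genes were higher. The 5 cycling genes summed to 390 and 227 CPM and the 6 B cell genes to 161 and 63.0, with 1 and 0 at 0. The mitochondrial genes had a ratio of 0.830. The part of all these genes in the enzyme difference was not tested. T cell-like cells had a ratio of 1.38 (1.15 to 1.66), NK cell-like cells 1.18 (1.05 to 1.33), mural-like cells 1.15 (1.03 to 1.30) and monocyte-like cells 1.09 (0.962 to 1.24). Cardiomyocyte genes were at 716 CPM in WT and 148 in AC8 in mural-like cells, and their part in its levels was not tested. In dendritic cell-like cells Aldoa, at 386 and 773 CPM, had a ratio of 2.003 (1.61 to 2.52), and Pgam1 and Pkm had 1.81 and 1.75. Ddit4 in NK cell-like cells was at 140 CPM in WT and 368 in AC8, a ratio of 2.63 (1.47 to 4.97), opposite to its value in macrophage-like cells, and the difference between these classes was not tested.

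Transcript length moved with genotype over all genes. With measured genes split by exon length into 10 equal bins, the median log2 ratio of AC8 over WT in fibroblast-like cells was 0.18 in the shortest bin and -0.28 in the longest. It was 0.26 and -0.33 in macrophage-like cells, 0.08 and -0.24 in endothelial-like cells, and 0.04 and -0.21 in B cell-like cells. The enzymes have a median of 2572.5 exon bases and the hypoxia genes 3084.5, while Pkm has 2599, Gapdh 1495 and Bnip3 1855. Against the median of their length bin, all 14 measured enzymes in macrophage-like cells were above it, with a median excess of 0.66 on the log2 scale, as were 12 of 15 in fibroblast-like (0.24), 11 of 13 in endothelial-like (0.41) and 5 of 9 in B cell-like cells (0.01).

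**Figure D5:**
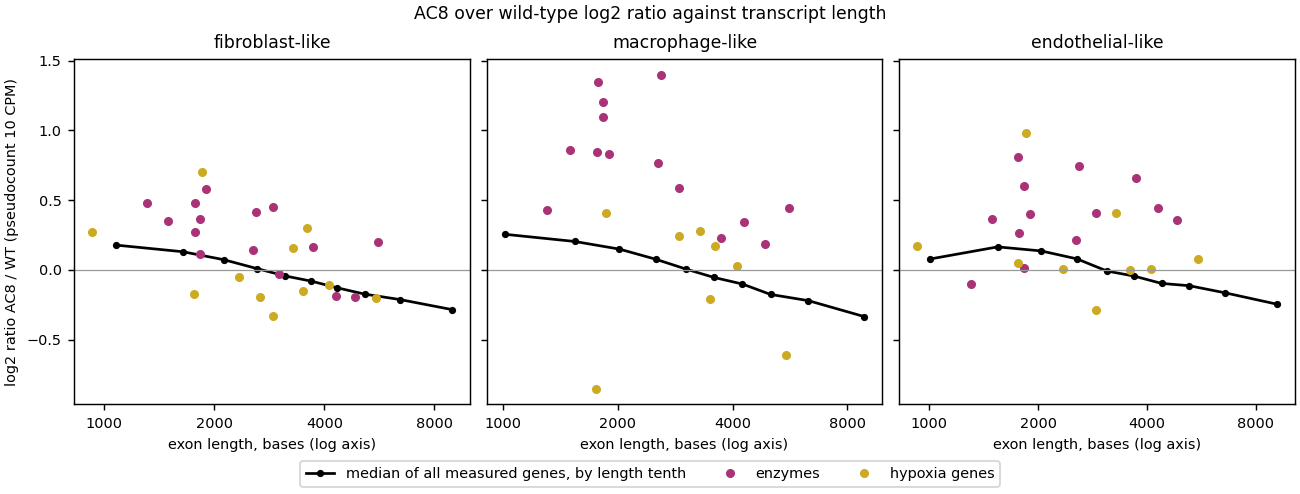
Log2 ratio of AC8 over WT (10 CPM added) against exon length in bases (log axis). The black line joins the medians of all measured genes by length bin, and points are the measured enzymes and hypoxia genes. The line falls to the right in each panel, and in macrophage-like cells all 14 enzymes lie above it.

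Neighbouring pathways were read from lists of other genes. Of the pentose phosphate pathway, which branches off glycolysis to make NADPH and ribose, 8 of 8 genes had higher CPM in macrophage-like cells of AC8, where 48.1% of all genes did, and 4 by at least 1.5-fold, where 12.1% of all were: Taldo1 (149 and 289 CPM, ratio 1.94), Tkt (137 and 254, ratio 1.85), Pgls (93.4 and 157, ratio 1.68) and Pgd (79.2 and 121, ratio 1.53). In fibroblast-like cells 5 of 8 were higher, with 0 at 1.5-fold (4.31% of all genes), and in endothelial-like cells 4 of 6, with Pgls (1.65) and Tkt (1.599) past it (8.0% of all). In B cell-like cells 3 of 4 were higher, 1 of them past 1.5-fold (11.4% of all), Pgls at 160 and 335 CPM (ratio 2.09, interval 1.36 to 3.36). Of genes for pyruvate entry to mitochondria and its use there, 6 of 10 were higher in macrophage-like cells. In these cells the carrier subunit Mpc2 alone passed 1.5-fold (79.2 and 120 CPM, ratio 1.51), where 12.1% of all genes did. In fibroblast-like cells 6 of 12 were higher, with Pcx at 11 and 19 UMIs the 1 past 1.5-fold (4.31% of all), and in endothelial-like cells 4 of 6 with 0 past it. In B cell-like cells Mpc1 (1.55) and Pdhb (1.69) were higher and Mpc2 (0.602) lower, all with intervals that include 1.

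Other glycolysis genes measured in macrophage-like cells numbered 7, of which 5 were higher and 3 passed 1.5-fold, as 12.1% of all genes did: Eno1b (1.94), the transporter gene Slc2a6 (7.47 and 21.6 CPM, ratio 2.88) and Eno3 (2.02, interval 0.956 to 4.78). In fibroblast-like cells 5 of 7 were higher and 0 passed 1.5-fold in either direction. In endothelial-like cells 1 of 3, Eno1b, did so (24.9 and 48.9 CPM, ratio 1.96), and in B cell-like cells Adpgk (32.0 and 91.7 CPM, ratio 2.86).

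Of further hypoxia-inducible genes, 10 of 19 were higher in macrophage-like cells, 6 by at least 1.5-fold (12.1% of all genes), and 2, Wsb1 (234 and 134 CPM, ratio 0.572) and Tfrc (0.611), were lower by as much (14.1% of all). Vegfa, the vessel growth factor, was at 6.73 CPM in WT and 26.1 in AC8, a ratio of 3.88 (1.93 to 8.84). Bhlhe40, a transcription repressor, was at 28.4 and 89.99 CPM (3.17, interval 2.24 to 4.59), the cytokine gene Mif at 118 and 246 (2.08) and the lipid droplet gene Plin2 at 217 and 385 (1.77). In fibroblast-like cells 7 of 25 were higher and 18 lower, with 1 past 1.5-fold higher (4.31% of all genes) and 3 lower (11.8%). Their sum there was 2123 and 1847 CPM, a ratio of 0.870 (0.844 to 0.896). There Bhlhe40 was at 356 and 212 CPM (0.594), the collagen crosslinker Loxl2 at 198 and 116 (0.586), Wsb1 at 112 and 55.2 (0.495) and Ppp1r3c at 13 and 20 UMIs. In endothelial-like cells 5 of 22 were higher, and 8 of 9 measured hypoxia genes among the members, where 47.8% of all genes were. Intervals lay above 1 for 2 of those 8, while Egln1, P4ha1, P4ha2 and Ddit4 had ratios of 1.002 to 1.03. The difference between the lists was not tested. Of the 22, 1 passed 1.5-fold higher (8.0% of all genes) and 2 lower (10.1%), with Gbe1 at 10.8 and 25.5 CPM (2.36), Stc1 at 39.0 and 14.4 (0.370) and Cxcr4 at 26.0 and 11.1 (0.427). In B cell-like cells 2 of 6 were higher, 1 by at least 1.5-fold (11.4% of all), Siah2 at 70.5 and 118 CPM (1.67).

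Of the remaining HIF pathway genes, Arnt, the partner of both alpha subunits, was lower in AC8 in fibroblast-like (50.6 and 31.9 CPM, ratio 0.630, interval 0.506 to 0.782) and macrophage-like cells (57.6 and 36.7, ratio 0.637, interval 0.468 to 0.871). Sirt1 was lower in macrophage-like cells (62.8 and 36.3 CPM, ratio 0.578). In endothelial-like cells Hif1an, the asparagine hydroxylase FIH, was at 30.3 and 7.77 CPM (0.256, from 28 and 7 UMIs) and Egln2 at 43.3 and 70.0 (1.62). In B cell-like cells Egln2 was at 38.4 and 126 CPM (3.27) and Cited2 at 38.4 and 97.0 (2.52), each from 6 WT UMIs. In this list 2 of 6 measured genes were higher in fibroblast-like, 3 of 6 in macrophage-like, 2 of 5 in endothelial-like and 3 of 4 in B cell-like cells, where 42.1%, 48.1%, 47.8% and 47.8% of all genes were higher.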

How the data were processed

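Single cells of 2 libraries were analysed, 1 per genotype. The deposited values are UMI counts for each gene in each cell, which, per the labels' protocols, the authors made with Cell Ranger. The submitters' processing notes name the build mm10. Cell Ranger's version was not given in the sources used here. Barcodes are running numbers, so shared barcodes could not be counted, and 0 cells had identical counts in both libraries.

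Cells were kept with at least 1000 UMIs, 500 genes and at most 10% mitochondrial UMIs. This left out 2066 WT and 1126 AC8 cells under a minimum and 15 and 18 over the limit. Doublets were scored against simulated doublets, and the top share at 0.8% per 1000 cells was removed (173 and 145 cells). The 2000 most variable genes, without the members and the 79 wider pathway genes, gave 30 principal components over both libraries. A 15-neighbour graph was split by the Leiden algorithm at resolution 1. A cluster took the type of its fixed markers, with at least 3 detected in 10% of its cells. Marker names can differ from the study's own.

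Counts were summed per class and library. A gene was measured with at least 30 summed UMIs and counted as higher or lower at 1.5-fold. Ratios are of CPM, and log2 ratios add 10 CPM. Intervals are exact (Poisson for levels, Clopper-Pearson for ratios) at 95%. The ratio code was tested on simulated data. In the 4 main classes all members past 1.5-fold were named, in wider lists at most 4 per class. Values of members under 30 UMIs are given as counts or as a highest or lowest level. The members and lists were chosen with earlier results of these data known. Gene lengths come from GENCODE vM21 on GRCm38, the assembly called mm10, where 98.2% of symbols matched. Alternatives changed the filters, clustering, scaling, weighting, pseudocount, minimum and fold. Added after seeing the data were centring by length, matched depth, leaving out the Spp1-led cluster and adding Eno1b. Tool versions were leidenalg 0.10.2, scipy 1.17.1, Python 3.11.15, igraph 0.11.9, scikit-learn 1.9.0, numpy 2.4.6, matplotlib 3.10.9 and pandas 2.3.3.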

Additional observations from a re-analysis of the deposited data

Results flagged for a closer look

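Bhlhe40 differed in direction between 2 classes. In macrophage-like cells its AC8-over-WT ratio was 3.17, and in fibroblast-like cells it was 0.594. The difference between the classes was not tested, since each genotype has 1 library.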

How the results depend on the processing

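Among members at least 1.5-fold different, the log2 ratio changed sign in 4 cases over the alternatives run, which hold no cluster of under 100 cells in a library: Bnip3 in fibroblast-like cluster 7 (-0.0074), Pfkl in endothelial-like cells of at least 2000 UMIs (-0.015), and, under an alternative chosen after seeing the data, Ldhb (-0.29) and Slc16a3 (-0.030) in macrophage-like cells of 1500 to 3000 UMIs. In smaller clusters the sign also differed for Ankrd37 in fibroblast-like cluster 11 (-0.54, from 3 and 1 UMIs) and for Eno1 (-0.335), Tpi1 (-0.14) and Pfkfb3 (2.52, from 0 and 21 UMIs) in the Spp1-led cluster, with 3 WT cells. Scaling by the median of ratios moved fibroblast-like levels by 0.08 on the log2 scale, which gave 5 members higher, an enzyme sum of 0.45 and a hypoxia sum of 0.11. The macrophage-like enzyme sum, 0.94, was 0.78 as a mean over cells, 0.55 and 0.76 within clusters 4 and 5, 0.81 when centred by length, 0.46 in cells of 1500 to 3000 UMIs (4 members higher) and 0.64 without the Spp1-led cluster. Centred by length, the enzyme sum was 0.29 in fibroblast-like cells (1 member higher) and 0.35 in endothelial-like cells, and 0 B cell-like members were lower. The fibroblast-like enzyme sum within cluster 7 was 0.30. Hypoxia sums were 0.12, 0.11 and -0.32 in fibroblast-like clusters 1, 2 and 7, -0.15 in macrophage-like cluster 5 and -0.083 in endothelial-like cluster 9. At 2-fold, members higher and lower numbered 0 and 0 in fibroblast-like, 5 and 1 in macrophage-like, 0 and 0 in B cell-like cells, and 1 was higher in endothelial-like cells. With a minimum of 10 UMIs, 8 were higher in endothelial-like cells and 5 higher and 3 lower in B cell-like cells. With a minimum of 100, 1, 1 and 0 were lower in fibroblast-like, macrophage-like and B cell-like cells. Lower members numbered 1 in fibroblast-like clusters 1, 2 and 7, 1 in macrophage-like cells as a mean over cells, within cluster 4 and when centred by length, and 2 in endothelial-like cells of at least 2000 UMIs. With all deposited cells, 1 B cell-like member was higher. Member counts in this paragraph stand without the share of all genes at the same setting. None is read as an excess over all genes. No B cell-like class remained at 2000 UMIs. No paired analysis was possible because each genotype has 1 library. The causes of these changes were not tested. Depth limits the low genes: 3 UMIs equal 0.684 CPM in fibroblast-like but 19.2 CPM in WT B cell-like cells.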
